A study of Mus musculus with 12 samples.

Results

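The genes described here were 10 nuclear receptors of the liver, 10 of the 51912 mouse genes counted in these libraries: Nr1i2 (PXR), Nr1i3 (CAR), Rxra, Nr1h4 (FXR), Nr1h3 (LXR alpha), Ppara, Nr0b2 (SHP), Nr5a2 (LRH-1), Nr3c1 (the glucocorticoid receptor) and Thrb. They were taken by name from the symbol column of the transformed table and joined to the counts by Ensembl identifier, and all 10 were found and passed the filter on low counts. Nr1i2 and Nr1i3 served as the check of genotype, and the question for the other 8 was whether their expression shifted when mouse Car and Pxr were lost.

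Liver RNA came from 12 adult male mice on the C57BL/6NTac background, 3 mice in each of 4 groups, and was sequenced from the 3' ends of messenger RNA. WT mice carried both mouse receptor genes and received either corn oil, the vehicle, or CITCO, an activator of human CAR. Both humanised genotypes lacked mouse Pxr and mouse Car and were given CITCO: hCAR/hPXR mice carried human CAR and human PXR, and Car KO/hPXR mice carried human PXR with no CAR. CITCO was injected intraperitoneally at 10 mg/kg daily for 4 days, and the livers were taken on day 5. Among the sequenced libraries only those of WT mice included corn oil, so how a humanised genotype responded to CITCO cannot be told apart from the genotype. Which parts of Nr1i2 and Nr1i3 were removed is not given in the sources used here, and reads were counted on mouse genes alone, so the human receptor messages were not measured.

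Nuclear receptors are transcription factors that bind small lipophilic molecules or, in some members, act without a known ligand. In hepatocytes CAR and PXR control drug metabolism, FXR with SHP and LRH-1 controls bile acid synthesis, LXR and PPARA control lipid handling, and many of these proteins bind DNA as partners of RXR. The receptors share partners, coregulators and target genes, and some of them control the genes of others.

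The libraries held between 1451214 and 2341572 counts in WT mice given corn oil (median 1600713) and between 1370357 and 1654448 in WT mice given CITCO (median 1577720). In hCAR/hPXR mice the range was 1167027 to 2012820 (median 1726056), and in Car KO/hPXR mice 1172227 to 1499517 (median 1255188). A count of 3 corresponded to 1.34 to 2.5 CPM (the count scaled to the size of the library), depending on the library. The labelled tissue was checked against its defining genes. All 8 hepatocyte markers were counted in every library, with Alb the most abundant, and their summed level lay between 27144 and 43719 CPM. None of the 8 passed the test in any comparison with edgeR or limma, and 1 of them, Hpx, did so with DESeq2 in hCAR/hPXR against Car KO/hPXR mice. The number of hepatocyte markers with an unadjusted p under 0.05 in edgeR was at most 1 in each comparison.

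The genotype was read from Nr1i2 (ENSMUSG00000022809, chr16:38248323-38294824, minus strand, GRCm38) and Nr1i3 (ENSMUSG00000005677, chr1:171213970-171220701, plus strand), the genes for the xenobiotic sensors PXR and CAR. Nr1i2 had 199, 100 and 155 counts in replicates 1 to 3 of WT corn oil, 114, 113 and 126 in WT CITCO, 0, 1 and 0 in hCAR/hPXR and 2, 0 and 0 in Car KO/hPXR. Every WT library was high, every humanised library was at or near 0, and no libraries of the WT and humanised groups overlapped. Summed over libraries, Nr1i2 had 353 counts in WT CITCO against 1 in hCAR/hPXR, a ratio of 389 after scaling (95% interval 69.3 to 15404), and against 2 in Car KO/hPXR, a ratio of 159.7 (43.9 to 1324). With both WT groups set against both humanised groups, the counts were 807 and 3 and the ratio 245 (83.5 to 1190). These intervals and the floors cover counting error only. The quasi-likelihood F-test of edgeR, adjusted over all genes by the Benjamini-Hochberg method, gave Nr1i2 an adjusted p of 1.69e-08 in hCAR/hPXR against WT CITCO, 5.21e-08 in Car KO/hPXR against WT CITCO and 6.33e-11 in both humanised against both WT groups.

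Nr1i3 had 287, 104 and 215 counts in WT corn oil, 184, 116 and 207 in WT CITCO, 2, 0 and 6 in hCAR/hPXR and 3, 2 and 5 in Car KO/hPXR. Again the WT and humanised libraries did not overlap, and some reads remained in 5 of the 6 humanised libraries. The group means were 111 ± 32.2 CPM (SD, n = 3) in WT corn oil, 115 ± 32.9 in WT CITCO, 2.01 ± 2.64 in hCAR/hPXR and 2.56 ± 1.34 in Car KO/hPXR. Nr1i3 fell by a log2 difference of 6.04 in hCAR/hPXR mice against WT CITCO (95% interval -7.07 to -5.01; adjusted p = 9.22e-07, quasi-likelihood F-test of edgeR, Benjamini-Hochberg). Against the same WT CITCO libraries the log2 difference in Car KO/hPXR mice was -5.47 (-6.47 to -4.47; adjusted p = 4.13e-06 by edgeR with the same adjustment). Both genes kept their calls without any single library and in each of the 6 other settings. In bulk liver, fewer cells of a type and less RNA per cell cannot be told apart, for these genes and for those below.

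Among the 10 members, 2 were called lower in hCAR/hPXR against WT CITCO, where 0.407% of all genes tested were called, and the same 2, Nr1i2 and Nr1i3, in Car KO/hPXR against WT CITCO, where 0.256% were. These comparisons share the WT CITCO libraries. Of all 8594 genes tested, 757 and 799 had an unadjusted p under 0.05 in edgeR in these 2 comparisons. The number was 785 in WT CITCO against WT corn oil and 913 in hCAR/hPXR against Car KO/hPXR. It was 661 in both humanised against both WT groups. The same 2 of 10 were called in both humanised against both WT groups, beside 0.268% of all genes. None of the 10 was called in WT CITCO against WT corn oil (0.233% of genes called) or in hCAR/hPXR against Car KO/hPXR (0.582%), by edgeR, DESeq2 or limma, and the number with an unadjusted p under 0.05 in edgeR was 1 in the former and 0 in the latter. A call needed an adjusted p under 0.05 and a fold change over 1.5. Between WT CITCO and WT corn oil both xenobiotic receptors overlapped, with fitted log2 differences of -0.08 for Nr1i2 (-0.54 to 0.39) and 0.05 for Nr1i3 (-0.57 to 0.67). The sign for Nr1i3 turned without WT corn oil replicate 2 (-0.16) or WT CITCO replicate 3 (-0.15).

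**Figure D1:**
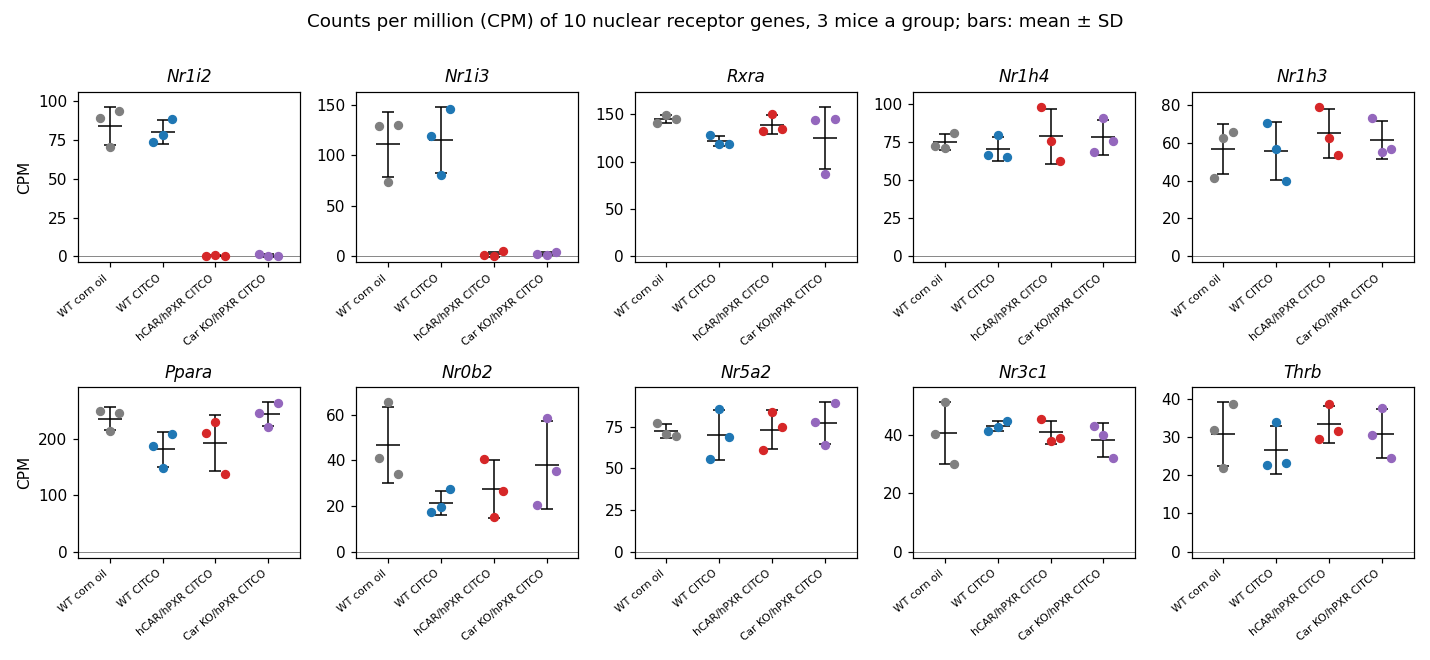
Each panel plots 1 of the 10 receptors in CPM in the 12 libraries by group, with dots for replicates 1 to 3 from left to right and a bar for the mean with its SD. Nr1i2 and Nr1i3 are near 0 in the 6 humanised libraries, while the other 8 receptors are present in all 12.

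The promoter windows of Nr1i2, Nr1i3 and Nr0b2 are shown because the first 2 belong to the genes that were lost and the last to the receptor that differed most between the WT groups. RefSeq windows on GRCm38.p6, from 250 bases before to 50 after a start, were found for 9 of the 10 members (13 windows). The search was for AGGTCA, the nuclear receptor half-site, and TCAAGG, the core of the site bound by LRH-1 and related monomeric receptors, on both strands, and the motifs can share bases. Capitals mark a motif match. The windows are chr16:38294775-38295074 (minus strand), chr1:171213720-171214019 (plus strand) and chr4:133553126-133553425 (plus strand).
Nr1i2: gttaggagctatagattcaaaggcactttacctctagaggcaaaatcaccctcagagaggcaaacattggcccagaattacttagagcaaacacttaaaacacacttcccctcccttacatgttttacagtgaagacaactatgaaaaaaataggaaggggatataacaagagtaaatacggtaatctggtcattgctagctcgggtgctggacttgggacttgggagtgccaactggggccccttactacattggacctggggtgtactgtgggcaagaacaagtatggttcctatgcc
Nr1i3: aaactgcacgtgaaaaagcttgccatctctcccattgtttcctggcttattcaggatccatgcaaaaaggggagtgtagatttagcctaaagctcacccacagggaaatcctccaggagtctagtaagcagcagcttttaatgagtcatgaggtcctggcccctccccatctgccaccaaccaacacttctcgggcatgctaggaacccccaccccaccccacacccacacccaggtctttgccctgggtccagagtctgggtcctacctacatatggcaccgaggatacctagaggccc
Nr0b2: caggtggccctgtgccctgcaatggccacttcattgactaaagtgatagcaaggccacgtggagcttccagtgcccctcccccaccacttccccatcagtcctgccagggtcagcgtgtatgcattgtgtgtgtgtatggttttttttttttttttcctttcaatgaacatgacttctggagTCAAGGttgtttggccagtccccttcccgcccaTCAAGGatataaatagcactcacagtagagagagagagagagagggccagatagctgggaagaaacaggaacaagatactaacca

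Nr0b2 held 2 matches to TCAAGG on its own strand, starting 68 and 35 bases before the start, and none to AGGTCA. The Nr1i2 and Nr1i3 windows held neither string, which says only that these letters are not in the windows. AGGTCA was found in 4 of the 13 member windows (1 each of Rxra, Nr1h4, Nr5a2 and Thrb), in 12 of the 64 windows of all listed nuclear receptors (18.8%) and in 16.3% of all 32851 promoter windows. TCAAGG was found in 2 of the 13 (Nr0b2 and Thrb), in 8 of the 64 (12.5%) and in 14.4% of all windows. In Thrb the 2 motifs overlap. A match is a description of the letters and not of a bound site.

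The genes next to Nr1i3 and Nr1i2 were read for differences beside the replaced loci. Of 12 protein-coding neighbours, 3 on either side of each gene, 8 were tested. The 3 tested around Nr1i2 were Lrrc58, Gsk3b, a protein kinase, and Cox17, a copper chaperone. The 5 around Nr1i3 were Sdhc, a subunit of succinate dehydrogenase, Pcp4l1, Tomm40l, a relative of the mitochondrial import channel, Apoa2, an apolipoprotein of HDL, and Fcer1g, an immune receptor chain. Tomm40l and Pcp4l1 were each called in 1 comparison by edgeR, and limma called Tomm40l in another. The other 6 were called in none by edgeR, DESeq2 or limma. The number of the 8 with an unadjusted p under 0.05 in edgeR was 0 in hCAR/hPXR and 3 in Car KO/hPXR against WT CITCO, and 1 in both humanised against both WT groups. It was 1 in WT CITCO against WT corn oil and 4 in hCAR/hPXR against Car KO/hPXR.

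Tomm40l (chr1:171216011-171222514, minus strand) lies opposite Nr1i3 and overlaps its 3' part. It had 15, 40 and 17 counts in WT corn oil, 16, 15 and 12 in WT CITCO, 12, 17 and 6 in hCAR/hPXR and 2, 0 and 0 in Car KO/hPXR. The Car KO/hPXR libraries were below all 9 others, and hCAR/hPXR libraries overlapped those of WT mice. Summed counts were 43 in WT CITCO against 2 in Car KO/hPXR, a scaled ratio of 19.5 (95% interval 5.07 to 166). The test narrowly missed a call for this pair of groups (adjusted p = 0.0529, quasi-likelihood F-test of edgeR, Benjamini-Hochberg; 2.79e-05 to 0.222 over the alternatives). It passed without WT CITCO replicate 3 (adjusted p = 0.0495), with no filter on low counts (2.79e-05) and in the fit of only the groups compared (0.0291), all by edgeR, and with limma (0.0382). DESeq2 gave no adjusted p. The scaled ratio of hCAR/hPXR to Car KO/hPXR was 14.4 (3.69 to 123; adjusted p = 0.0760 by edgeR, Benjamini-Hochberg; 0.000792 to 0.308 over the alternatives that gave one, DESeq2 giving none). Tomm40l was also called lower in both humanised against both WT groups (adjusted p = 0.0370, edgeR, Benjamini-Hochberg), although the hCAR/hPXR libraries overlapped those of WT mice. That call was lost without any of WT corn oil replicate 2, WT CITCO replicates 1, 2 and 3, hCAR/hPXR replicates 1 and 3 and Car KO/hPXR replicates 2 and 3, with adjusted p-values up to 0.141 in the same edgeR test. It was also lost in the 9 CITCO libraries (0.0901 by edgeR) and with limma (0.0515), and DESeq2, which gave no adjusted p, did not call it. Where Nr1i3 and Tomm40l overlap, the assignment of reads is uncertain without counting by strand, and the strand setting is not given in the sources used here.

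Pcp4l1 (chr1:171173262-171196268, minus strand) lies before the start of Nr1i3 and does not overlap it. It had 8, 4 and 3 counts in WT corn oil, 7, 2 and 15 in WT CITCO, 21, 23 and 8 in hCAR/hPXR and 0, 0 and 2 in Car KO/hPXR. Scaled to library size, its hCAR/hPXR libraries were above its Car KO/hPXR libraries, WT corn oil lay between, and WT CITCO overlapped both. The summed counts of 52 and 2 gave a scaled ratio of 21.4 (95% interval 5.62 to 181) and an adjusted p of 0.0414 (quasi-likelihood F-test of edgeR, Benjamini-Hochberg). The call was lost without any 1 of the 6 libraries, namely hCAR/hPXR replicates 1, 2 and 3 and Car KO/hPXR replicates 1, 2 and 3, with adjusted p-values between 0.0746 and 0.221 by edgeR (0.000142 to 0.221 over the alternatives that gave one). Limma called it (adjusted p = 0.0211), and DESeq2, which gave no adjusted p, did not. A replicate block in edgeR also ended this call. Between WT CITCO and Car KO/hPXR the scaled ratio was 10.9 (2.70 to 94.8), which edgeR did not call in the main fit. Of 5 other settings, 1 called it (adjusted p = 0.0346, quasi-likelihood F-test of edgeR, Benjamini-Hochberg), and DESeq2 and limma did not.

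The other neighbours of Nr1i3 gave no call. Apoa2 read 4054, 3272 and 5118 CPM in WT CITCO and 3477, 2562 and 2586 in Car KO/hPXR, with 1 Car KO/hPXR library inside the WT range. Sdhc read 119, 106 and 133 CPM in WT CITCO and 87.0, 97.7 and 97.7 in Car KO/hPXR, without overlap, and Fcer1g 14.3, 18.0 and 9.85 and 14, 19.2 and 11.5, with overlap. In Car KO/hPXR against WT CITCO, 3 of the 8 neighbours had an unadjusted p under 0.05 in edgeR, beside 799 of all 8594 genes tested. Of the 8, edgeR called 0, limma called 1, Tomm40l, and DESeq2 called 0.

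**Figure D2:**
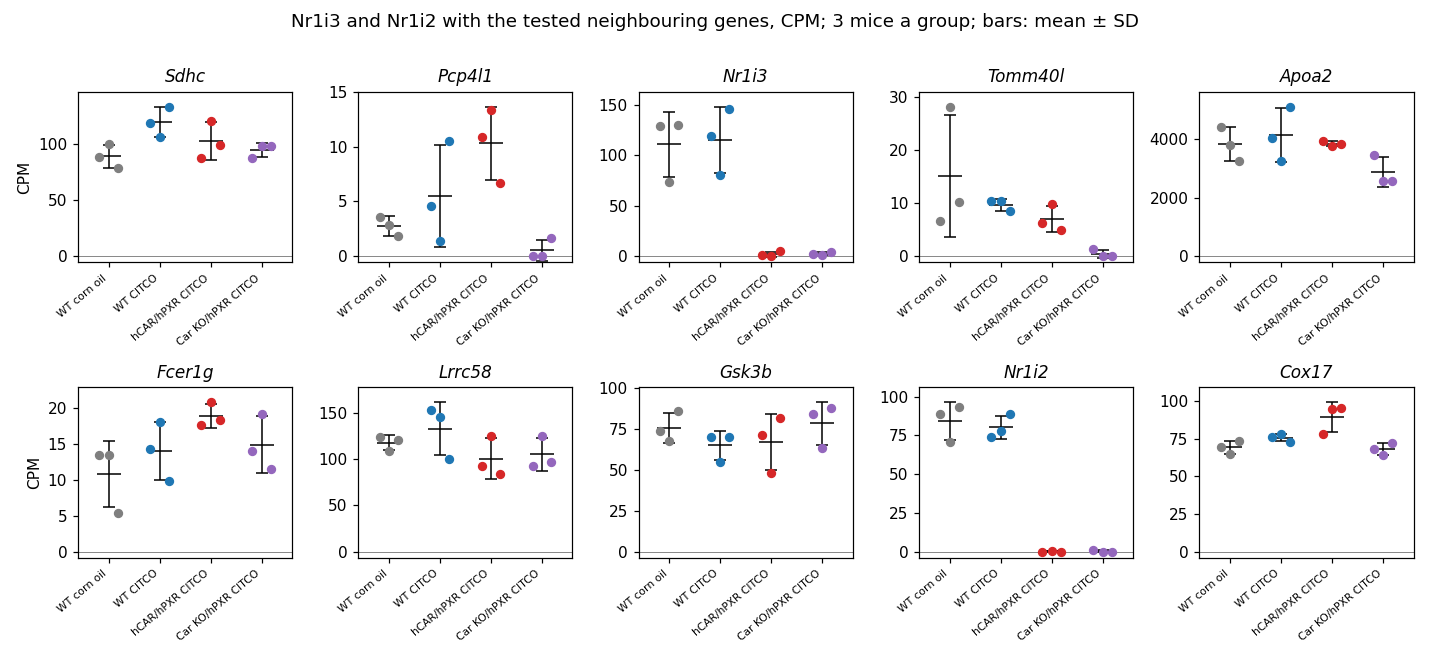
CPM in each of the 12 libraries for Nr1i3 and Nr1i2 and their tested neighbours, in order along the chromosome, with dots for replicates 1 to 3 and bars for the mean with its SD. Tomm40l is lowest in the 3 Car KO/hPXR libraries, while for Pcp4l1 a WT CITCO library lies within the Car KO/hPXR range, and the neighbours of Nr1i2 show no such gap.

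Apart from Nr1i2 and Nr1i3, the receptors did not shift by a measurable amount. In both humanised against both WT groups, 6 libraries a side, the fitted log2 differences of the other 8 had a median of 0.07, against 0.01 for all genes tested. None of the 8 was called by edgeR, DESeq2 or limma, and none had an unadjusted p under 0.05 in edgeR. Their adjusted p-values lay between 0.869 and 0.994 (quasi-likelihood F-test of edgeR, Benjamini-Hochberg). A p that misses the threshold does not show the absence of a difference, and the intervals give what these libraries allow. Over the 8 receptors the 95% intervals ran from a log2 difference of -0.53 to 0.59, so all 8 lay within 2-fold in either direction in this contrast. The humanised side was all CITCO and the WT side part corn oil, so treatment was not balanced. Within WT mice 7 of the 8 were lower with CITCO. Against WT CITCO alone the medians of the 8 were 0.18 in hCAR/hPXR and 0.15 in Car KO/hPXR mice, above the pooled 0.07.

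Against WT CITCO alone, the 8 had a median log2 difference of 0.18 in hCAR/hPXR mice (range -0.07 to 0.37, adjusted p from 0.780 to 0.955 by edgeR, Benjamini-Hochberg) and of 0.15 in Car KO/hPXR mice (range -0.16 to 0.81, adjusted p from 0.478 to 0.965 by the same edgeR test). In each of these comparisons 7 of the 8 were higher and 1, Nr3c1, was lower, and both use the same WT CITCO libraries. Of all 8594 genes tested, 4433 and 4258 were higher. Between WT CITCO and WT corn oil the median was -0.15, with 7 of 8 lower after CITCO, beside 4301 of the 8594 genes. None of the 8 was called in any of the 3 comparisons by edgeR, DESeq2 or limma. The numbers of the 8 with an unadjusted p under 0.05 in edgeR were 0, 1 and 1. For 7 of the 8 the interval stayed within 2-fold in each of these comparisons and in hCAR/hPXR against Car KO/hPXR, and the exception was always Nr0b2.

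**Figure D3:**
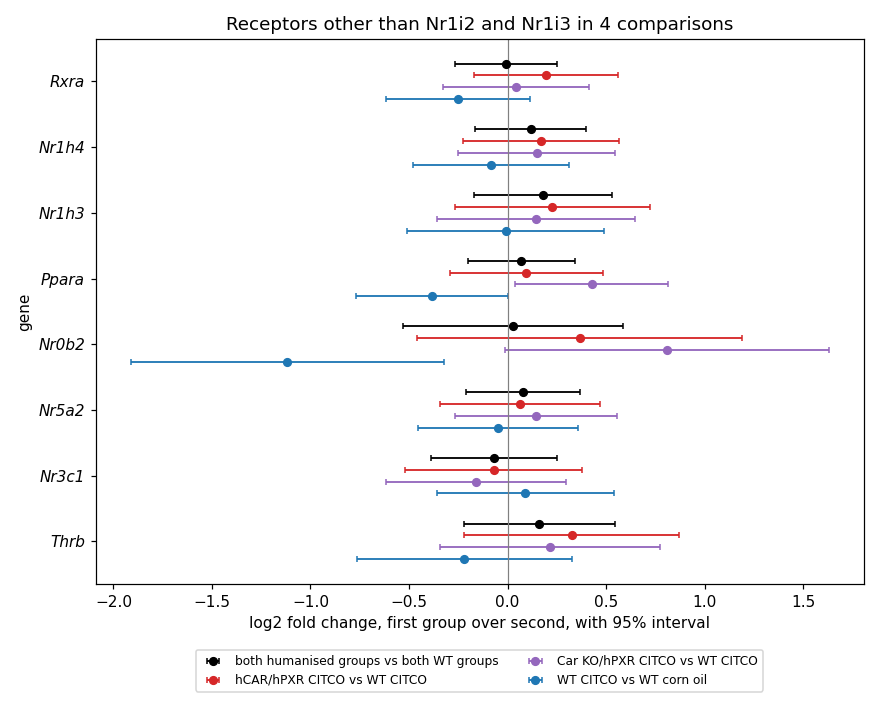
Fitted log2 fold change and 95% interval of each of the 8 receptors other than Nr1i2 and Nr1i3 in 4 comparisons, with 0 marking no difference. The intervals of both humanised against both WT groups all include 0, and those of Nr0b2 are the widest.

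Rxra (ENSMUSG00000015846, chr2:27676440-27762957, plus strand) encodes the partner with which CAR, PXR, FXR, LXR and PPARA bind DNA. It read 141, 149 and 145 CPM in WT corn oil, 128, 119 and 118 in WT CITCO, 133, 150.4 and 134 in hCAR/hPXR and 144, 86.8 and 145 in Car KO/hPXR. WT CITCO libraries were all below WT corn oil and hCAR/hPXR libraries, and Car KO/hPXR replicate 2 was the lowest of the 12. The differences were small beside their error. In both humanised against both WT groups the log2 difference was -0.01 (95% interval -0.27 to 0.25), and its sign turned without WT CITCO replicate 1 (0.01), hCAR/hPXR replicate 1 (0.00), hCAR/hPXR replicate 3 (0.00) or Car KO/hPXR replicate 2 (0.09).

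The bile acid receptors were Nr1h4, Nr0b2 and Nr5a2. FXR, the product of Nr1h4 (ENSMUSG00000047638, chr10:89454234-89533585, minus strand), senses bile acids. Nr1h4 read 72.6, 71.2 and 80.9 CPM in WT corn oil, 66.8, 79.5 and 65.4 in WT CITCO, 98.4, 75.8 and 62.6 in hCAR/hPXR and 68.6, 91.0 and 75.6 in Car KO/hPXR. All 4 groups overlapped, and hCAR/hPXR mice had both the highest and the lowest library. Nr5a2 (ENSMUSG00000026398, chr1:136842571-136960448, minus strand), the gene for LRH-1, an activator of bile acid synthesis genes, read 77.5, 70.5 and 69.4 CPM in WT corn oil, 55.8, 85.7 and 68.9 in WT CITCO, 61.1, 83.9 and 75.1 in hCAR/hPXR and 78.2, 64.3 and 89.5 in Car KO/hPXR. These groups overlapped too. In both humanised against both WT groups the log2 differences were 0.12 for Nr1h4 (-0.16 to 0.40) and 0.08 for Nr5a2 (-0.21 to 0.37).

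Nr0b2 (ENSMUSG00000037583, chr4:133553376-133556536, plus strand) encodes SHP, a receptor without a DNA-binding domain that represses other receptors and is induced by FXR. It varied most of the 8, with a ratio of 4.36 between the highest and the lowest library, against 1.57 to 1.98 for the other 7. Nr0b2 read 41.2, 65.6 and 33.8 CPM in WT corn oil, 17.5, 19.4 and 27.4 in WT CITCO, 40.4, 15 and 26.7 in hCAR/hPXR and 20.3, 58.4 and 35.3 in Car KO/hPXR. All WT CITCO libraries were below all WT corn oil libraries, while both humanised groups overlapped both WT groups. The log2 difference between WT CITCO and WT corn oil was -1.12 (95% interval -1.91 to -0.32), which was not called (unadjusted p = 0.00851, adjusted p = 0.333 in quasi-likelihood F-test of edgeR, Benjamini-Hochberg). Over the alternatives its adjusted p lay between 0.00504, in the fit of all genes with no filter on low counts, and 0.665, all by the named tools edgeR, DESeq2 and limma. In Car KO/hPXR against WT CITCO the log2 difference was 0.81 (-0.01 to 1.63; adjusted p = 0.542 by edgeR, Benjamini-Hochberg). In both humanised against both WT groups it was 0.03 (-0.53 to 0.59), and its sign turned without WT corn oil replicate 1 (-0.02) or 3 (-0.07), WT CITCO replicate 1 (-0.04) or 2 (-0.01), hCAR/hPXR replicate 1 (-0.20) or Car KO/hPXR replicate 2 (-0.20).

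The lipid receptors were Nr1h3 and Ppara. Nr1h3 (ENSMUSG00000002108, chr2:91184061-91202834, minus strand) encodes the oxysterol receptor LXR alpha. It read 41.7, 62.8 and 65.8 CPM in WT corn oil, 70.7, 56.7 and 40.1 in WT CITCO, 79.3, 62.5 and 53.4 in hCAR/hPXR and 73.1, 55.1 and 56.7 in Car KO/hPXR. The 4 groups overlapped, and the 2 lowest libraries were both from WT mice. The log2 difference of both humanised against both WT groups was 0.18 (-0.17 to 0.53).

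Ppara (ENSMUSG00000022383, chr15:85734983-85802819, plus strand) encodes the receptor that turns on fatty acid oxidation in fasting. Ppara read 249, 214 and 246 CPM in WT corn oil, 187, 149 and 209 in WT CITCO, 211, 231 and 138 in hCAR/hPXR and 247, 221 and 264 in Car KO/hPXR. WT CITCO libraries were all below the WT corn oil and Car KO/hPXR libraries, which overlapped each other, and hCAR/hPXR libraries spread over both ranges. The log2 differences were -0.38 in WT CITCO against WT corn oil (-0.77 to 0.00; adjusted p = 0.549, quasi-likelihood F-test of edgeR, Benjamini-Hochberg) and 0.43 in Car KO/hPXR against WT CITCO (0.04 to 0.82; adjusted p = 0.478 by the same edgeR test). Neither passed, and both rest on the same 3 WT CITCO libraries. In both humanised against both WT groups the difference was 0.07 (-0.20 to 0.34), and it was -0.00 without hCAR/hPXR replicate 2.

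The hormone receptors were Nr3c1, which answers glucocorticoids, and Thrb, the main thyroid hormone receptor of the liver. Nr3c1 (ENSMUSG00000024431, chr18:39410545-39519421, minus strand) read 40.3, 51.5 and 30.2 CPM in WT corn oil, 41.5, 42.9 and 45.0 in WT CITCO, 45.6, 38.2 and 39.2 in hCAR/hPXR and 43.2, 40.1 and 32.0 in Car KO/hPXR. Thrb (ENSMUSG00000021779, chr14:17660261-18038090, plus strand) read 31.8, 21.9 and 38.6 CPM in WT corn oil, 22.7, 33.9 and 23.2 in WT CITCO, 29.5, 38.8 and 31.7 in hCAR/hPXR and 30.5, 37.6 and 24.6 in Car KO/hPXR. Neither gene separated any group from another, and for both the WT corn oil libraries spread most. The log2 differences of both humanised against both WT groups were -0.07 for Nr3c1 (-0.39 to 0.25), which was 0.02 without WT corn oil replicate 2, and 0.16 for Thrb (-0.22 to 0.55).

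Of the rest of the family, 39 further nuclear receptors were listed, 32 had counts and a symbol, and 17 were expressed enough to be tested. Between hCAR/hPXR and WT CITCO none was called by edgeR, DESeq2 or limma, with 3 at an unadjusted p under 0.05 in edgeR. Between WT CITCO and WT corn oil the same held with 2, and in hCAR/hPXR against Car KO/hPXR with 3. Their medians in these comparisons were 0.08, -0.01 and -0.09. In Car KO/hPXR against WT CITCO 1 was called by edgeR, Nr1d1, which was higher. The 6 with the highest mean were Hnf4a (120.4 CPM), Rora (114), Nr1d2 (98.5), Nr1d1 (76.3), Nr2c2 (54.4) and Nr2f2 (50.8), and only Nr1d1 of these was called. Hnf4a, central to hepatocyte identity, had means of 120.4 ± 9.22 in WT corn oil, 120.3 ± 4.54 in WT CITCO, 132 ± 20.2 in hCAR/hPXR and 109 ± 33.0 in Car KO/hPXR (SD, n = 3), which overlapped.

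Nr1d1 (ENSMUSG00000020889, chr11:98767932-98775333, minus strand) encodes REV-ERB alpha, a repressor in the circadian clock. Nr1d1 read 92.7, 76.2 and 73.7 CPM in WT corn oil, 22.7, 34.6 and 56.3 in WT CITCO, 46.1, 55.0 and 100.1 in hCAR/hPXR and 88.3, 144 and 126 in Car KO/hPXR. WT CITCO libraries were the lowest group, below all of WT corn oil and Car KO/hPXR, and hCAR/hPXR libraries overlapped the other 3 groups. Nr1d1 rose by a log2 difference of 1.66 in Car KO/hPXR against WT CITCO (95% interval 1.01 to 2.30; adjusted p = 0.0298, quasi-likelihood F-test of edgeR, Benjamini-Hochberg; 7.59e-11 to 0.205 over the alternatives). It was called by DESeq2 and limma too, and the call was lost without WT CITCO replicate 1 (adjusted p = 0.203), WT CITCO replicate 2 (0.205), Car KO/hPXR replicate 2 (0.105) or Car KO/hPXR replicate 3 (0.0933) in the edgeR test. The log2 difference was -1.10 in WT CITCO against WT corn oil (-1.75 to -0.46; adjusted p = 0.192 by edgeR, Benjamini-Hochberg; 0.000135 to 0.547 over the alternatives), which passed only without WT CITCO replicate 3 or with no filter. It was 0.80 in hCAR/hPXR against WT CITCO (0.15 to 1.46; adjusted p = 0.434 by edgeR, Benjamini-Hochberg). Nr1d2, its relative in the clock, read 89.5, 85.7 and 105 CPM in WT CITCO and 99.1, 111 and 117 in Car KO/hPXR, which overlapped. The end of Nr1d1 overlaps that of Thra on the opposite strand (chr11:98740638-98769006, plus strand), so the same uncertainty holds there. Thra had 19, 6 and 17 counts in WT CITCO and 25, 26 and 20 in Car KO/hPXR, without overlap, and was not called. The hour at which livers were taken is not given in the sources used here.

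**Figure D4:**
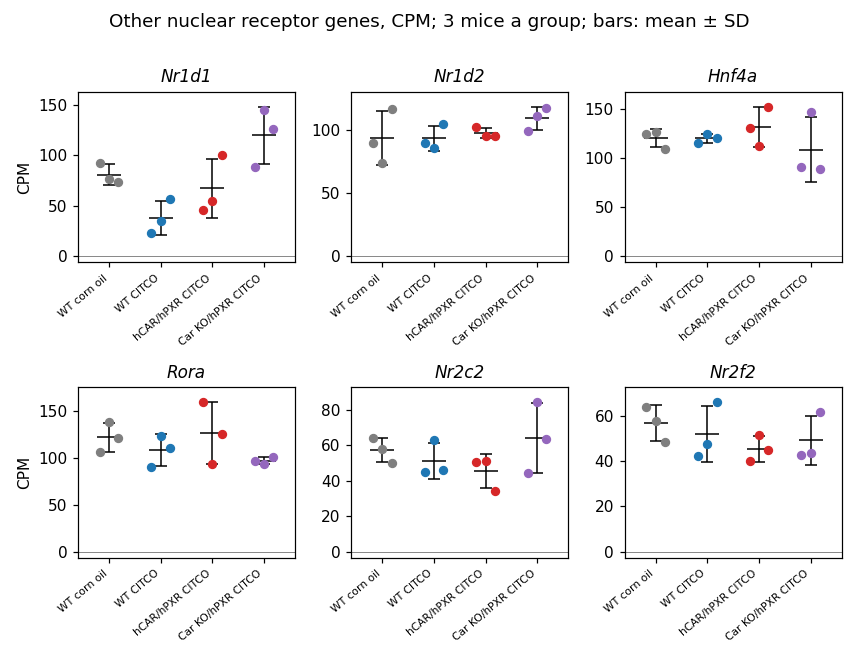
CPM in each of the 12 libraries for Nr1d1 and 5 other abundant nuclear receptors, with dots for replicates 1 to 3 and bars for the mean with its SD. Nr1d1 is lowest in WT CITCO and highest in Car KO/hPXR.

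Coregulators, the proteins through which nuclear receptors act on chromatin, gave no call. Of 21 listed, 20 were tested and none was called in any comparison by edgeR, DESeq2 or limma, with at most 3 at an unadjusted p under 0.05 in edgeR (3 in Car KO/hPXR against WT CITCO, 0 in WT CITCO against WT corn oil and 1 in each of the others). With no filter on low counts, and without hCAR/hPXR replicate 2, edgeR called 1 in hCAR/hPXR against Car KO/hPXR mice. The most abundant, Tbl1xr1, part of the corepressor complex, had means of 92.6 ± 20.8, 65.7 ± 2.15, 79.6 ± 28.1 and 105 ± 22.5 CPM in WT corn oil, WT CITCO, hCAR/hPXR and Car KO/hPXR (SD, n = 3). Next came Ncor1, the corepressor itself, with 79.0 ± 14.3, 66.9 ± 1.27, 86.0 ± 4.06 and 76.1 ± 18.0. All 3 WT CITCO libraries of both genes were below those of WT corn oil and hCAR/hPXR for Ncor1, and below those of WT corn oil and Car KO/hPXR for Tbl1xr1, by amounts that were not called.

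The target genes of the receptors were read beside the receptors, for hCAR/hPXR and Car KO/hPXR mice against the shared WT CITCO libraries. Of 20 tested CAR and PXR targets, 7 were called higher in hCAR/hPXR mice (median log2 difference 0.81, against 0.01 for all genes) and 2 were called lower in Car KO/hPXR mice (median 0.15, against -0.00) by edgeR. In hCAR/hPXR mice DESeq2 called 7 higher, limma 8 higher and both 0 lower. In Car KO/hPXR mice limma called 3 lower and 0 higher, and DESeq2 called 3 lower and 2 higher, Cyp3a11 and Cyp3a25. Cyp2b10, the P450 most used as a marker of CAR, read 1.3, 4.15 and 1.41 CPM in WT CITCO, 146, 167 and 153 in hCAR/hPXR and 0.635, 0 and 2.46 in Car KO/hPXR, so that only hCAR/hPXR mice stood apart. The others among the 6 with the smallest adjusted p were Cyp2c29, Cyp3a11, Gstm3, Cyp3a25 and Ces2a, with log2 differences of 1.93, 2.02, 2.57, 1.17 and 1.08 in hCAR/hPXR mice. The calls of Cyp3a25 were lost without WT CITCO replicate 1 or 2 or hCAR/hPXR replicate 1 (adjusted p up to 0.109 in quasi-likelihood F-test of edgeR, Benjamini-Hochberg) and those of Ces2a without WT CITCO replicate 1, 2 or 3 or hCAR/hPXR replicate 2 (up to 0.0937 by the same edgeR test). The genes lower in Car KO/hPXR mice were Cyp2c50, at 688, 645 and 777 CPM in WT CITCO and 224, 303 and 231 in Car KO/hPXR, and Cyp2c37, at 193, 174 and 201 and at 74.3, 69.3 and 32.9. Both genes had no overlap between these groups. Cyp2c50 fell by a log2 difference of 1.48 (-1.91 to -1.05; adjusted p = 0.00201 by edgeR, Benjamini-Hochberg). Cyp2c37 fell by 1.68 (-2.29 to -1.07; adjusted p = 0.0219 by edgeR, Benjamini-Hochberg), a call lost without WT CITCO replicate 1 or 2 or Car KO/hPXR replicate 3 (adjusted p up to 0.106 in edgeR). Reads of the closely related Cyp2c and Cyp3a genes are divided between them by the counting, which leaves the level of each uncertain.

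Targets of the other receptors gave fewer calls. Of 9 tested targets of FXR, SHP and LRH-1, 1 was called lower in hCAR/hPXR mice by edgeR (median -0.21; 2 lower by DESeq2, with the same gene among them, and 0 by limma) and 0 in Car KO/hPXR mice (median 0.03; 4 at an unadjusted p under 0.05 in edgeR, and 0 called by DESeq2 or limma). The called gene was Cyp7a1, the rate-limiting enzyme of bile acid synthesis, which read 98.6, 44.9 and 124 CPM in WT CITCO, 24.9, 38.8 and 24.2 in hCAR/hPXR and 62.9, 44.3 and 40.2 in Car KO/hPXR. The hCAR/hPXR libraries lay below the others, with Car KO/hPXR libraries overlapping the lower WT one. Cyp7a1 fell by a log2 difference of 1.59 in hCAR/hPXR mice (-2.29 to -0.90; adjusted p = 0.0376, quasi-likelihood F-test of edgeR, Benjamini-Hochberg; 4.12e-09 to 0.182 over the alternatives). That call was lost without WT CITCO replicate 1 (adjusted p = 0.162) or 3 (0.182) or hCAR/hPXR replicate 1 (0.164) or 3 (0.168) in edgeR, in the fit of only the groups compared (0.0554 by edgeR) and with limma (0.0517). A replicate block in edgeR ended the call too. The receptors that control it, Nr1h4, Nr0b2 and Nr5a2, all overlapped between these groups. The most abundant of the list were Slc27a5 and Cyp27a1, at 529 ± 44.4 and 362 ± 65.5 CPM in WT CITCO, 489 ± 40.0 and 338 ± 68.3 in hCAR/hPXR and 584 ± 17.5 and 493 ± 74.5 in Car KO/hPXR (SD, n = 3), with no call.

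For PPARA, 15 tested targets gave no call in either comparison by edgeR (4 in hCAR/hPXR and 1 in Car KO/hPXR mice at an unadjusted p under 0.05). DESeq2 called Fabp1 lower in hCAR/hPXR mice and 0 of the list in Car KO/hPXR mice, and limma called 0. The 15 were all lower in hCAR/hPXR mice, with a median log2 difference of -0.30, and 13 of 15 were lower in Car KO/hPXR mice, with a median of -0.18. Of all 8594 genes tested, 4161 and 4336 were lower in these comparisons, which share the WT CITCO libraries. Fabp1, a fatty acid carrier, had means of 3685 ± 338 CPM in WT CITCO, 2425 ± 175 in hCAR/hPXR and 3265 ± 202 in Car KO/hPXR (SD, n = 3). Fabp1 was lower in hCAR/hPXR mice by more than the SD, a difference that edgeR did not call.

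Of 8 tested LXR targets edgeR called 0 in either comparison (1 and 3 at an unadjusted p under 0.05), with medians of 0.08 and 0.32. Limma called 1 higher in Car KO/hPXR mice, Scd1, and DESeq2 called 0. Scd1, the stearoyl-CoA desaturase, had means of 1412 ± 1039.6 CPM in WT CITCO, 2526 ± 1794 in hCAR/hPXR and 5444 ± 1468 in Car KO/hPXR, and Fasn, the fatty acid synthase, 155 ± 46.4, 195 ± 8.32 and 451 ± 221 (SD, n = 3). Both genes had their highest mean in Car KO/hPXR mice, with a wide spread. In WT corn oil the means were 3165 ± 1158 for Scd1 and 339 ± 178 for Fasn, above those of WT CITCO. For both genes WT corn oil libraries overlapped Car KO/hPXR libraries. Of 5 tested thyroid hormone receptor targets edgeR called 0 (1 and 1 at an unadjusted p under 0.05) and DESeq2 and limma 0, with medians of 0.10 and 0.26. Thrsp, a regulator of lipid synthesis, and Me1, the malic enzyme, had means of 706 ± 77.5 and 213 ± 88.5 CPM in WT CITCO, 992 ± 252 and 182 ± 28.5 in hCAR/hPXR and 1804 ± 625 and 302 ± 55.9 in Car KO/hPXR. In WT corn oil they were 1217 ± 773 and 273 ± 117, with libraries that overlapped Car KO/hPXR for both genes.

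Of 12 glucocorticoid receptor targets, 3 were called higher in hCAR/hPXR mice (median 0.09) and 0 in Car KO/hPXR mice (median 0.08; 1 at an unadjusted p under 0.05 in edgeR, and 0 called by DESeq2 or limma). The 3 were Igfbp1, a secreted binder of insulin-like growth factors, and the metallothioneins Mt1 and Mt2. Igfbp1 read 27.2, 19.4 and 61.9 CPM in WT CITCO, 210.3, 193 and 314 in hCAR/hPXR and 47.7, 117 and 139 in Car KO/hPXR. Its hCAR/hPXR libraries were above all others, and it rose by a log2 difference of 2.72 against WT CITCO (1.95 to 3.50; adjusted p = 0.000783, quasi-likelihood F-test of edgeR, Benjamini-Hochberg). In WT corn oil Igfbp1 lay between 93.0 and 116 CPM, above all WT CITCO libraries. Its means were 102 CPM in WT corn oil, 36.2 in WT CITCO and 239 in hCAR/hPXR. Mt1 and Mt2 rose by 2.83 and 3.45 (adjusted p = 0.0363 and 0.0201 by edgeR, Benjamini-Hochberg), and each call was lost without WT CITCO replicate 1, 2 or 3 or hCAR/hPXR replicate 1 or 3 (adjusted p up to 0.219 for Mt1 and 0.148 for Mt2 in edgeR). DESeq2 and limma called all 3 genes. Mt1 read 242, 44.4 and 27.2 CPM in WT corn oil and 508, 231 and 847 in hCAR/hPXR, so that WT corn oil replicate 1 lay inside the hCAR/hPXR range. Mt2 read 158, 18.3 and 12.7 in WT corn oil and 551, 248 and 749 in hCAR/hPXR, without overlap. Reads of this pair of related genes may be divided between them. Pck1 and Tat, classical glucocorticoid targets and the most abundant of the list, had means of 1906 ± 98.1 and 239.6 ± 38.4 CPM in WT CITCO, 2118 ± 699.9 and 322 ± 99.8 in hCAR/hPXR and 2077 ± 658 and 299 ± 4.12 in Car KO/hPXR (SD, n = 3), with no call.

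Markers of other liver cells were read in the same libraries. The summed level of 7 lymphocyte and neutrophil markers, in which S100a8 was the most abundant, was 45.1, 40.5 and 57.6 CPM in hCAR/hPXR mice. It was 11.2, 10.6 and 10.9 in WT corn oil, 14.9, 13.1 and 17.6 in WT CITCO and 14.6, 20.9 and 7.39 in Car KO/hPXR, so that hCAR/hPXR libraries stood above all others. The higher sum came mainly from the 2 neutrophil genes of the list. Only 3 of the 7 were tested, and the other 4, all lymphocyte markers, had at most 1 count in any hCAR/hPXR library, so no rise of lymphocyte markers is shown. S100a8, a calcium-binding protein of neutrophils, read 5.19, 4.15 and 2.11 CPM in WT CITCO and 15, 25.5 and 28.4 in hCAR/hPXR, with no overlap. It rose by a log2 difference of 2.54 (1.62 to 3.46; adjusted p = 0.00961, quasi-likelihood F-test of edgeR, Benjamini-Hochberg), a call lost without WT CITCO replicate 3 or hCAR/hPXR replicate 2 or 3 (adjusted p up to 0.0640 in edgeR). Limma called S100a8 too, and DESeq2, which gave it no adjusted p, did not. The part of these cells in the differences between hCAR/hPXR and WT mice given above was not tested. Markers of Kupffer cells (9 tested), sinusoidal endothelium (8), stellate cells (6), cholangiocytes (1) and red blood cells (5) gave 0 calls by edgeR in either comparison with WT CITCO, where between 0 and 3 of each list had an unadjusted p under 0.05, and 0 by DESeq2 or limma.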

How the data were processed

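The authors trimmed the reads with Trimmomatic 36 after FastQC 11.7, aligned them to the Ensembl annotation of GRCm38 with STAR 2.5.2 and estimated expected counts per gene with RSEM 1.3. The deposited expected counts covered 51912 genes without normalization, and the deposited transformed values, on a log2-like scale from DESeq2's variance-stabilising transformation, covered 17859 genes. RSEM divides reads between genes, so 9.34% of the counts of detected genes had a fraction, and they were rounded. Counts were analysed in R 4.3.3 with edgeR 4.0.16. Its filterByExpr function kept 8594 genes, which were scaled by TMM and tested by quasi-likelihood F-tests in 1 fit of all 12 libraries with 1 mean per group. Adjustment was over all genes tested, and a call needed an adjusted p under 0.05 and a fold change over 1.5. DESeq2 1.42.0 and limma 3.58.1, the latter on the transformed values, served as alternatives. Differences of genes whose low group summed to 1 to 3 counts are given as ratios of summed counts scaled to library size, with exact Poisson intervals.

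The members and lists were chosen with earlier results of these data known. Each list is described by its calls and its median beside those of all genes, with no test of the list. The genes named were all 10 members, every other nuclear receptor called in hCAR/hPXR or Car KO/hPXR against WT CITCO and the 6 most abundant, all tested neighbours of Nr1i2 and Nr1i3, and of each other list the genes called in the comparisons described (the 6 with the smallest adjusted p where there were more) with the 2 most abundant. Thra and Hpx fall outside these rules and were named after their values were seen, and not every gene within the rules is printed. GENCODE M21 gave the gene coordinates on GRCm38, while the authors used another release, and promoter sequences are from RefSeq on GRCm38.p6.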

Additional observations from a re-analysis of the deposited data

How the results depend on the processing

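With 3 mice a group and between 1167027 and 2341572 counts a library, small differences and genes with few reads are poorly resolved, and 1 library can end a call outside Nr1i2 and Nr1i3. Of 300 alternative values for the 20 member values printed, 283 kept direction and side of the threshold, 0 lost a call, 1 gained one and 16 turned sign around a difference near 0. Over all named genes there were 556, of which 471 were kept, 59 weaker, 10 stronger and 16 reversed. Alternatives for the other nuclear receptors, coregulators and other named genes were chosen after seeing the data. The cause was not tested for any of the changes below.

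The number of members called differed from the main value only with no filter on low counts, with 1 (Nr0b2) in WT CITCO against WT corn oil. Rxra reversed to 0.11 in the 9 CITCO libraries and Nr0b2 to -0.034 with limma, both in both humanised against both WT groups. Leaving out 1 library gave -0.066 to 0.092 for Rxra, -0.0037 to 0.16 for Ppara, -0.20 to 0.19 for Nr0b2 and -0.16 to 0.019 for Nr3c1 in that comparison, and -0.16 to 0.26 for Nr1i3 in WT CITCO against WT corn oil.

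The numbers of all genes called were 35 in hCAR/hPXR against WT CITCO, 22 in Car KO/hPXR against WT CITCO, 20 in WT CITCO against WT corn oil, 50 in hCAR/hPXR against Car KO/hPXR and 23 in both humanised against both WT groups. With no filter, which tests 20067 genes, they were 184, 227, 179, 233 and 140, and with DESeq2 63, 69, 42, 96 and 36. The fit of only the groups compared gave 40 in Car KO/hPXR against WT CITCO, and the 9 CITCO libraries gave 39 in both humanised against both WT groups. Scaling by RLE in place of TMM shifted the median log2 difference of all genes by at most 0.02 and moved no count by over 1.5 times.

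Leaving out 1 library gave 17 to 32 genes in hCAR/hPXR against WT CITCO, with 17 without WT CITCO replicate 1, 23 without its replicate 2 and 20 without hCAR/hPXR replicate 3. In Car KO/hPXR against WT CITCO it gave 5 to 58, with 5, 6 and 58 without WT CITCO replicates 1, 2 and 3 and 14 and 10 without Car KO/hPXR replicates 1 and 3. In WT CITCO against WT corn oil it gave 6 to 54, with 7 and 6 when WT corn oil replicates 2 and 3 were left out and 7, 7 and 54 without WT CITCO replicates 1, 2 and 3. In hCAR/hPXR against Car KO/hPXR it gave 10 to 58, with 23 and 19 without hCAR/hPXR replicates 1 and 3 and 19 and 10 without Car KO/hPXR replicates 1 and 3. In both humanised against both WT groups it gave 10 to 27, with 10 when WT corn oil replicate 2 was left out, 11 and 13 without WT CITCO replicates 1 and 3, 12 without hCAR/hPXR replicate 3 and 15 and 13 without Car KO/hPXR replicates 2 and 3.

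The sources used here do not say whether replicate numbers pair mice across groups, and these checks do not settle it. Correlations over 18 pairs of libraries with the same number ran from -0.06 to 0.07, 0 of them over 0.1. However, 9 of 12 libraries were most alike to one of the same number, which is a hint from the data and not the design. With a replicate block the numbers of genes called were 33, 24, 20, 53 and 21, and the numbers of members called did not change. The block added a call of Tomm40l in Car KO/hPXR against WT CITCO (adjusted p = 0.0433, quasi-likelihood F-test of edgeR, Benjamini-Hochberg). It ended the calls of Pcp4l1 (adjusted p = 0.0586) and Cyp7a1 in hCAR/hPXR mice (0.0708) in quasi-likelihood F-test of edgeR, Benjamini-Hochberg.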
